A study of Mus musculus with 137 samples.

Results

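Control bone marrow-derived macrophages were compared after 24 h with lipopolysaccharide (LPS) and interferon-gamma (IFN-gamma) and at rest (0 h), in 3 mouse cohorts, to find the RNA changes that lasted to 24 h in all of them. The 45 control libraries at these times were chosen by genotype and time in the labels, out of 137 libraries in the series. At 24 h there were 9 libraries in cohort KO1, 7 in KO2 and 6 in KI, and at 0 h there were 9, 8 and 6. In KO1 the labels number the 9 libraries as S33, S34 and S35, called cultures here, with 3 repeats each, whose counts were summed, so n is 3 cultures per time. In KO2 and KI every library counts as its own unit. Nothing in the labels ties these libraries to separate mice or cultures, so their p-values measure only the spread between these samples, which may be technical.

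Controls of KO1 and KO2 were Beclin1flox/flox-LysM-Cre-, so they carried the floxed Beclin1 gene without the recombinase that the LysM promoter drives in myeloid cells. Controls of KI were littermates of Beclin1F121A/F121A mice, labelled WT. All mice were 7 weeks old, and marrow was grown in M-CSF (20 ng/ml) for 7 days and re-plated. The 24 h cells received LPS at 100 ng/ml with IFN-gamma at 100 ng/ml, a combination known as M1 activation, and the 0 h cells received neither. RNA was profiled by Smart-Seq2, a full-length method primed on the poly(A) tail, with paired reads of 38 bases and no molecular barcodes. Control cells at 6 h of the same stimulus (9, 8 and 6 libraries) are set beside these where a time course helps.

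LPS is sensed by Toll-like receptor 4, which drives NF-kappaB and a first wave of cytokines, while IFN-gamma acts through JAK kinases on genes with gamma-activated sites and on interferon regulatory factors. Together they turn mouse macrophages into cells that make nitric oxide, present antigen and burn glucose, and they are known to lower receptors that resting tissue macrophages use to take up dying cells. Feedback proteins are known to hold early cytokine transcripts down again within hours.

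Library totals ran from 3028618 to 15627379 counts at 24 h and from 2207035 to 10233584 counts at 0 h. CPM values (counts scaled to a common library size) below use library totals scaled by TMM, a factor that aligns the bulk of genes between libraries, and they are not divided by gene length, so that levels are compared only within a gene. Each cohort was scaled in its own table, so levels set side by side across cohorts carry that limit. The first principal component separated 24 h from 0 h in every cohort and held 92.7%, 97.1% and 98.2% of the variance of the 1000 most variable genes in KO1, KO2 and KI. The mitochondrial share of counts had a median of 2.95% at 24 h against 7.135% at 0 h in KO1, 3.859% against 8.667% in KO2 and 2.198% against 5.874% in KI. Macrophage markers summed to a median of 34200, 36800 and 28400 CPM at 24 h in KO1, KO2 and KI, against 28900, 45500 and 70600 CPM at 0 h, and all 13 of them were detected in every group. Markers of T cells, B cells, mast cells, erythroid cells and fibroblasts summed to a median of at most 18.4 CPM in any group. Monocyte markers had medians of 94.2, 23 and 32.5 CPM at 24 h against 135, 9.67 and 135 CPM at 0 h, and neutrophil markers 107, 82.7 and 85.3 CPM at 24 h against 172, 59.9 and 97.7 CPM at 0 h. Dendritic cell markers had medians of 11, 8.02 and 9.41 CPM at 24 h against 7.59, 4.23 and 4.33 CPM at 0 h, endothelial markers 31, 11.2 and 33.7 CPM against 27.5, 28 and 18.4 CPM, and NK cell markers 7.09, 4.6 and 2.97 CPM against 1.16, 0.623 and 0.451 CPM. The part of such cells in the results was not tested.

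Some libraries stood apart within their cohort, and KO1 differed from the other cohorts in sex-linked RNA. The resting KO1 cultures differed from each other in interferon-stimulated genes: the mean log2(CPM + 1) over that list was 8.06, 8.28 and 8.61 at 24 h in S33, S34 and S35, against 5.46, 3.68 and 6.93 at 0 h, while the resting libraries of KO2 and KI spanned 3.23 to 3.81 and 3.84 to 4.09. Within the KI controls at 24 h, libraries 1, 3 and 5 stood apart from libraries 2, 4 and 6: 2744 of 11500 genes (23.9%) did not overlap between these sets at 24 h, against 1473 (12.8%) at 0 h, and the labels do not say what the sets are. KO1 libraries held Ddx3y of the Y chromosome at 14.9 to 29.4 CPM and Xist at 0.214 to 0.787 CPM, whereas KO2 and KI libraries held Xist at 120 to 235 and 98.6 to 228 CPM and Ddx3y at up to 0.394 and 0.176 CPM, so a difference between KO1 and the other cohorts and a difference of sex cannot be told apart. These sex-linked genes and the KI sets were chosen after values were seen, and the sets are not groups of the study.

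A fit across all genes in edgeR, with 1 quasi-likelihood model per cohort, called 5743 of 13693 genes between 24 h and 0 h in KO1 (41.9%), 6401 of 10794 in KO2 (59.3%) and 7337 of 11500 in KI (63.8%) at an adjusted p under 0.05. Calls were nearly even in direction: 21.3% of genes tested were higher and 20.6% lower in KO1, 29.6% and 29.7% in KO2, and 33.9% and 29.9% in KI. Of 10612 genes tested in all 3 cohorts, 1952 (18.4%) were higher at 24 h in every cohort, 1425 (13.4%) lower in every cohort, and 106 (0.999%) were called in all 3 with mixed direction. These 1952 and 1425 genes are called the shared state below. Its changes were large: 283 genes were higher and 107 lower by at least 3 on the log2 scale in every cohort, and 84 and 12 by at least 5.

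The shared genes made up most of the RNA at 24 h. Genes of the shared higher set held 64.1% ± 0.496 of counts at 24 h against 22.6% ± 3.16 at 0 h in KO1 (SD, n = 3 each). The same set held 61.9% ± 1.27 (n = 7) against 23% ± 1.04 (n = 8) in KO2, and 70.4% ± 0.582 against 20.1% ± 0.373 in KI (n = 6 each). Genes of the shared lower set held 2.16%, 2.28% and 1.83% of counts at 24 h, against 14%, 12.4% and 12.8% at 0 h. These shares describe sets chosen from the same libraries and have no test of their own.

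Because so much of the RNA changed, the scaling decides where no change lies. With library totals alone the median log2 fold change of all genes moved to -1.14 in KO1, -0.467 in KO2 and -0.843 in KI, from -0.113, -0.0289 and 0.0318 with TMM. The higher share of calls moved with it to 10.5%, 23.3% and 17.4%, from 50.9% in KO1, 3200 of 6401 calls in KO2 and 53.1% in KI, and the shared state to 792 higher and 4504 lower genes. Directions below are therefore relative to the bulk of genes, and a list's counts with library totals alone follow its main counts. Leaving out 1 KO1 culture moved the KO1 change by over 1.5 times in 56 of 180 named genes, in 42 of them without S35, and ended the KO1 call of 18. The values without a culture stand beside most genes described by unit and beside each lost call. In these bulk samples, fewer cells with an RNA and less of that RNA per cell cannot be told apart.

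**Figure D1:**
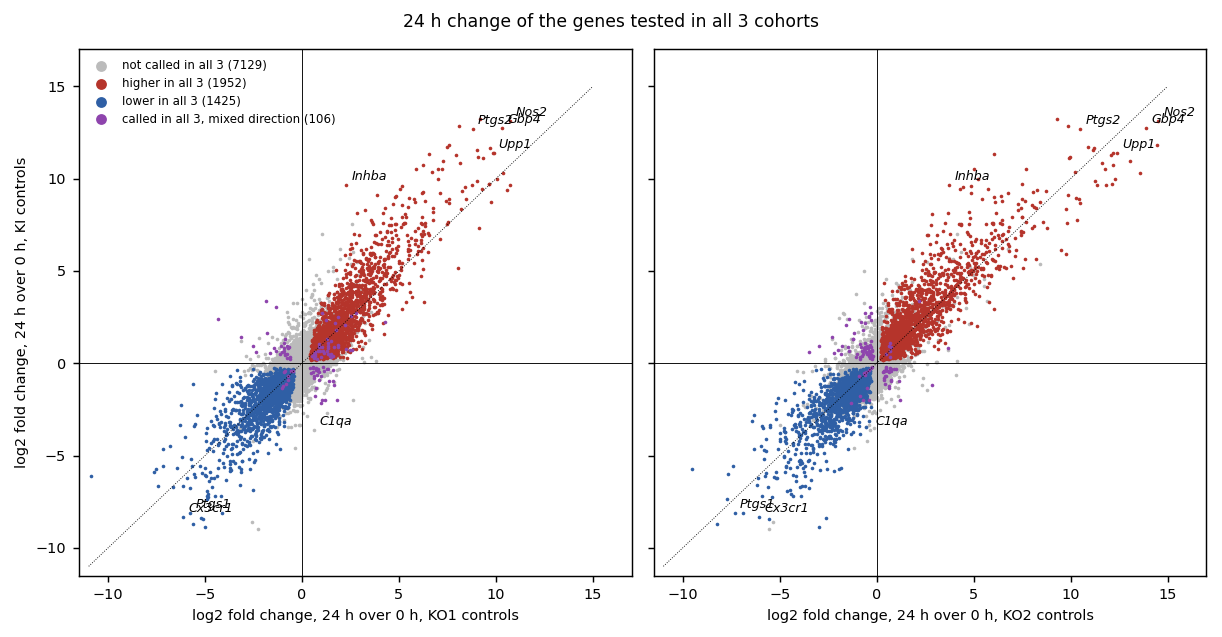
Log2 fold change of 24 h over 0 h for each of the 10612 genes tested in all 3 cohorts, in KI (vertical) against KO1 (left) and KO2 (right); colours mark the genes higher, lower or of mixed direction in all 3 and the diagonal marks equal change. Nos2, Gbp4 and Upp1 lie at the upper end of both panels, Cx3cr1 and Ptgs1 at the lower end, and Pearson correlations over these genes are 0.873 for KO1 and KI and 0.888 for KO2 and KI, as a description across genes, which are not independent replicates.

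Nos2 (chr11:78920787-78960254, plus strand, GRCm38), the inducible nitric oxide synthase, was the highest of the shared state by its smallest change over the cohorts. In KO1 it had 1600, 2320 and 1370 CPM at 24 h, against 0.322, 1.35 and 1.45 CPM at 0 h. In KO2 it had 1710 to 3080 CPM (median 2460) at 24 h, against 0 to 0.447 CPM (median 0) at 0 h. In KI it had 5840 to 11600 CPM (median 8480) at 24 h, against 0.266 to 2.22 CPM (median 0.839) at 0 h. The groups did not overlap in any cohort, which also holds for 53.1%, 29.8% and 44.6% of all genes tested in KO1, KO2 and KI. The log2 fold change was 10.72 ± 0.62 in KO1, 14.498 ± 0.39 in KO2 and 13.097 ± 0.54 in KI (± SE; edgeR, largest adjusted p of 3.8e-10).

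Acod1 (chr14:103046977-103056573, plus strand), which makes itaconate from a TCA cycle intermediate, was among the 15 highest and was detected at rest. Its KO1 cultures had 20600, 23700 and 14200 CPM at 24 h, against 9.34, 18.9 and 86 CPM at 0 h. KO2 libraries had 8020 to 13200 CPM (median 11200) at 24 h, against 2.05 to 7.06 CPM (median 4.3) at 0 h. KI libraries had 21900 to 29000 CPM (median 25400) at 24 h, against 23.9 to 32.5 CPM (median 24.9) at 0 h. The 3 resting KO1 cultures spread widely, with S35 the highest, yet lay far under the 24 h values, and the log2 fold change was 9.001 ± 0.84 in KO1, 11.27 ± 0.23 in KO2 and 9.87 ± 0.26 in KI (edgeR, largest adjusted p 8.64e-08), and 10.61 in KO1 without S35.

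Upp1, uridine phosphorylase, which frees ribose from uridine, was next to absent at rest. It had 602, 655 and 444 CPM at 24 h, against 0.451, 0.618 and 0.763 CPM at 0 h, in KO1. The KO2 libraries held 517 to 917 CPM (median 668) at 24 h, against 0 to 0.395 CPM (median 0) at 0 h, and 6 of the 8 resting ones had no count. In KI there were 712 to 924 CPM (median 842) at 24 h, against 0 to 0.613 CPM (median 0.276) at 0 h. The log2 fold change was 9.84 ± 0.496 in KO1, 12.39 ± 0.25 in KO2 and 11.39 ± 0.300 in KI (edgeR, largest adjusted p 8.77e-11).

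Il1b, the inflammasome-processed cytokine, and Ptgs2, the inducible cyclooxygenase of prostaglandin synthesis, were the remaining inflammatory genes among the 15. Il1b had 3840, 5880 and 5170 CPM at 24 h, against 5.54, 7.87 and 15.2 CPM at 0 h, in KO1. KO2 libraries had 2460 to 4590 CPM (median 2950) at 24 h, against 0.197 to 3.19 CPM (median 1.53) at 0 h, and KI libraries had 15500 to 21400 CPM (median 18100) at 24 h, against 3.04 to 10.3 CPM (median 5.3) at 0 h. Ptgs2 (chr1:150100031-150108227, plus strand) had 1400, 2000 and 960 CPM at 24 h, against 1.8, 3.2 and 4.81 CPM at 0 h, in KO1. It had 199 to 707 CPM (median 443) at 24 h, against 0 to 0.894 CPM (median 0.186) at 0 h, in KO2. KI libraries had 13400 to 15700 CPM (median 14400) at 24 h, against 0.443 to 4.75 CPM (median 2.04) at 0 h, and the log2 fold change was 8.799 ± 0.65 in KO1, 10.47 ± 0.42 in KO2 and 12.67 ± 0.55 in KI (edgeR, largest adjusted p 6.11e-09), and 9.401 in KO1 without S35.

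The other genes among the 15 highest were the GTPases Gbp4, Gbp8, Gbp10 and Tgtp1, the serine protease inhibitors Serpina3f and Serpina3g, the CXCR3 ligands Cxcl9 and Cxcl10, the JAK inhibitor Socs1 and Clic5 of the chloride intracellular channel family. Gbp4 had 4170, 4980 and 4710 CPM at 24 h, against 1.67, 0.956 and 8.39 CPM at 0 h, in KO1, and 4860 to 8730 CPM (median 6480) at 24 h, against 0.443 to 1.84 CPM (median 0.962) at 0 h, in KI. Cxcl9 had 1390, 1110 and 619 CPM at 24 h, against 0.451, 0.843 and 1.68 CPM at 0 h, in KO1, and Socs1 had 172, 118 and 91.9 CPM at 24 h, against 0.0644, 0 and 0.153 CPM at 0 h. Several had next to no reads at rest, so their fitted folds depend on the prior count: Serpina3f had no count in the 8 resting KO2 libraries, which puts it at least 10.63 higher on the log2 scale against a floor of 3 counts over the group. Gbp10 likewise had no count in the 6 resting KI libraries and was at least 11.64 higher. Socs1 had 3 counts in resting KO1, a ratio of 1970 with a counting interval of 672 to 9540. Fitted log2 fold changes were 10.31, 13.88 and 12.72 for Gbp4, in the order KO1, KO2 and KI used from here on, 10.35, 13.599 and 10.31 for Serpina3g, 10.04, 12.296 and 9.97 for Cxcl9 and 9.34, 9.92 and 11.14 for Clic5. Without S35 the KO1 values were 11.77 for Gbp4, 10.88 for Cxcl9 and 10.13 for Clic5, and Cxcl9 was at 9.43 without S33.

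**Figure D2:**
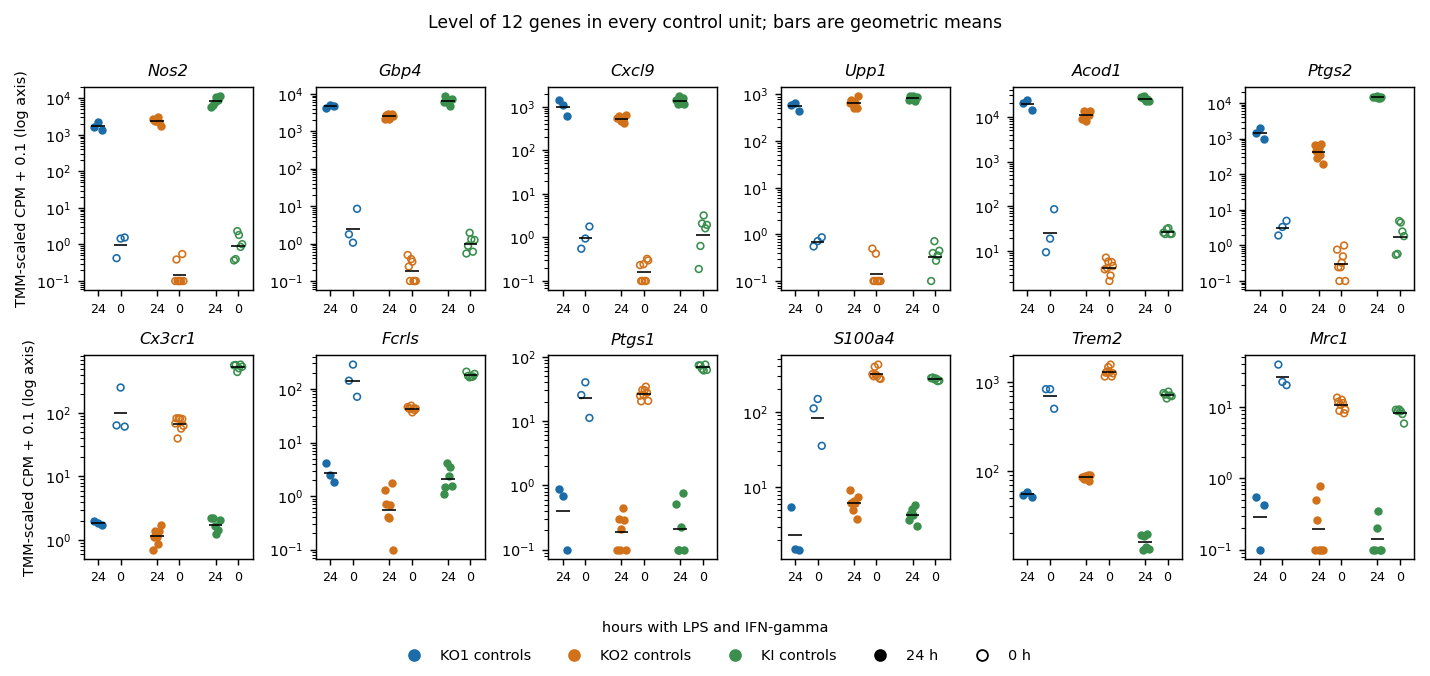
TMM-scaled CPM plus 0.1 (log axis) of 12 genes in every control unit at 24 h (filled) and 0 h (open) in KO1 (3 cultures), KO2 (7 and 8 libraries) and KI (6 each); bars are geometric means. In all 12 panels and all 3 cohorts no 24 h unit overlaps a resting one: 6 genes are higher at 24 h (top row) and 6 lower (bottom row). The groups do not overlap in 53.1%, 29.8% and 44.6% of all genes tested in KO1, KO2 and KI. Most of the 12 were chosen for large changes in these same units.

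The guanylate-binding proteins (GBPs) and immunity-related GTPases (IRGs) attack the membranes around intracellular microbes and are classic targets of IFN-gamma. All 11 GBPs tested were higher in every cohort, against 18.4% of all genes tested in all 3, with medians of 8.39, 9.3 and 9.64 on the log2 fold scale in KO1, KO2 and KI. Of 12 IRGs tested, 10 were higher, with medians of 4.59, 6.39 and 5.96, and none was lower. Library totals alone left both counts as they were. The members lie in clusters: 5 GBP genes at chr3:142493978-142638008, 6 at chr5:105014150-105346472 and IRG genes in separate blocks of chromosome 11, 7 at chr11:48861968-49096974 and 3 at chr11:58187739-58222782 (GRCm38). Reads of such near-identical neighbours, and those of Serpina3f and Serpina3g, of the Bcl2a1 genes and of the H2 genes, may be shared between copies, since counting was unstranded and its treatment of shared reads is not given in the sources used here.

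Promoters of Gbp2, Gbp5, Tgtp1, Socs1 and Cx3cr1 are shown. These genes were picked by name, not by a rule. Tgtp1 and Socs1 are among the 15 highest genes, while Gbp2 and Gbp5 are not. Cx3cr1 is the first of the lower genes in the ranking by smallest change, within the same limit of level. Each is the 170 bases before the start in RefSeq (GRCm38.p6), 5′ to 3′ on the gene's strand, with matches on either strand in capitals. Motifs searched were the interferon-stimulated response element (GAAA, any 2 bases, GAAA), the gamma-activated site TTCNNNGAA and the kappaB site (GGGA, any base, TTTCC), on both strands.
Gbp2: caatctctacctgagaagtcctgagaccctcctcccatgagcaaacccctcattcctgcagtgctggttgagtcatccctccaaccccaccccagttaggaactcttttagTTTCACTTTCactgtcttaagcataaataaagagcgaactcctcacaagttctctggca
Gbp5: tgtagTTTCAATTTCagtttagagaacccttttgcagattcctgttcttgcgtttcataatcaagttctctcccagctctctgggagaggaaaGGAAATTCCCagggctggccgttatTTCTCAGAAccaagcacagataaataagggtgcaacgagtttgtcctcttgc
Tgtp1: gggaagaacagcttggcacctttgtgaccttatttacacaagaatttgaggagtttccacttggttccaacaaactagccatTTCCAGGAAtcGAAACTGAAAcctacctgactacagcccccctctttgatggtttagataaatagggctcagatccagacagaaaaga
Socs1: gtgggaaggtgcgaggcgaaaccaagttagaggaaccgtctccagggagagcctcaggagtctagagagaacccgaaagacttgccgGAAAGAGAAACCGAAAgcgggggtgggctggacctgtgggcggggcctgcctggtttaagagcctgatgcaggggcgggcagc
Cx3cr1: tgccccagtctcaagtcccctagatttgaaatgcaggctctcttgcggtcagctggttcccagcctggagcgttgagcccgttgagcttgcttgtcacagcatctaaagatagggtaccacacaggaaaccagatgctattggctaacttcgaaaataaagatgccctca

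These windows are chr3:142620493-142620662 and chr3:142496764-142496933 on the plus strand, and chr11:48992247-48992416, chr16:10785537-10785706 and chr9:120068297-120068466 on the minus strand. Gbp2 holds a response element at -59 to -50, counted from the start. Gbp5 holds one at -165 to -156, a gamma-activated site at -52 to -44 and a kappaB site at -77 to -68. Tgtp1 holds a response element at -77 to -68 beside a gamma-activated site at -88 to -80, and Socs1 holds 2 response elements that overlap, at -83 to -74 and -77 to -68. Cx3cr1 holds none of these letters in the window. Nos2 has no entry in the promoter table.

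Among the promoters in the table, the response element was found within 250 bases of the start in 3.04% of 27025, in 2.94% of those of genes tested in all 3 cohorts, in 5.87% of 1363 shared higher genes and in 2.22% of 1037 shared lower genes. All 5 GBPs with an entry held it, as did 7 of 10 IRGs and 12 of 31 type I interferon-stimulated genes (38.7%), against none of 22 glycolysis genes. Among the 15 highest genes, 3 of the 11 with an entry held it (27.3%), and among the 15 lowest 1 of 14 (7.14%). The gamma-activated site was in 7.18% of all promoters and in 6.18% of those of genes tested in all 3 cohorts. It was in 7.12% of shared higher and 6.36% of shared lower genes, in 2 of 5 GBPs and in 6 of 10 IRGs. The kappaB site was in 0.337% of all promoters. Matches describe letters in a window and are not shown to be bound sites.

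Genes named as type I interferon-stimulated, which code for antiviral effectors and sensors, were higher in every cohort in 32 of 41 tested and lower in none, with median log2 fold changes of 2.28, 3.85 and 3.54. The count was 23 with library totals alone and 21 without KO1 culture S33. Isg15, a ubiquitin-like modifier, changed by 5.62, 7.16 and 6.77, Rsad2, the antiviral viperin, by 4.56, 7.53 and 7.098, and Oasl1 by 5.09, 6.82 and 7.39. The other 9 genes missed the test in KO1 alone, where the resting cultures spread: Ifit3 was at 1.38 ± 1.100 in KO1 (edgeR, adjusted p 0.326) but 5.696 ± 0.22 in KO2 and 3.35 ± 0.16 in KI. In KO1 Ifit3 passed with a replicate block (2.671, adjusted p 0.00806) and with no filter (0.000834), and was 2.841 without S35 (0.0667). Ccl5, a chemokine gene that interferon induces, shows that spread, with S34 the lowest and S35 the highest at rest: KO1 cultures had 41800, 49900 and 47000 CPM at 24 h, against 108, 10.5 and 1690 CPM at 0 h.

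Of 22 receptors, JAKs, STATs and interferon regulatory factors, 14 were higher in every cohort and 1 was lower, against 6 higher and 4 lower with library totals alone. Irf1, a transcription factor of interferon responses, had 2350, 3030 and 3250 CPM at 24 h, against 27.8, 32 and 55.6 CPM at 0 h, in KO1, and 1660 to 2500 CPM (median 2070) at 24 h, against 18.7 to 30.5 CPM (median 23.3) at 0 h, in KO2. Its change was 6.23, 6.45 and 6.25 (edgeR, largest adjusted p 3.46e-09). Irf7 changed by 3.53, 5.41 and 5.898 and Batf2 by 5.46, 6.47 and 6.64, and the KO1 call of Irf7 was lost without S33 (adjusted p 0.0729). The lower member was Ifngr1, the ligand-binding chain of the IFN-gamma receptor, at -1.32, -1.905 and -2.69.

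Genes of both arms of antigen presentation rose. Of 20 class I and peptide-loading genes, 18 were higher in all cohorts and none lower, which fell to 10 with library totals alone and to 9 without culture S33. Tap1 and Tap2, which pump peptides into the endoplasmic reticulum, changed by 3.76, 5.33 and 5.76 and 3.96, 4.21 and 4.43, and the non-classical H2-Q6 by 4.15, 6.15 and 8.16, its KO1 call being lost without S33 (adjusted p 0.071). The 5 immunoproteasome genes, whose subunits replace the constitutive ones to cut peptides for class I, were all higher under both scalings, with medians of 3.53, 4 and 4.53. Psmb9 had 301, 378 and 581 CPM at 24 h, against 27.8, 18.2 and 63.3 CPM at 0 h, in KO1, and 221 to 300 CPM (median 261) at 24 h, against 8.77 to 13.7 CPM (median 11.4) at 0 h, in KI. The constitutive proteasome also rose relative to the bulk of genes, with 29 of 31 genes higher and medians of 1.75, 0.897 and 1.19, led by Psma5 at 2.84, 2.14 and 2.82, and 13 were higher and 1 lower with library totals alone.

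On the class II side 8 of 9 tested genes were higher in every cohort, 7 with library totals alone, with medians of 2.93, 3.94 and 3.69. H2-Ab1, a chain of the class II molecule, had 710, 912 and 774 CPM at 24 h, against 44.7, 16.9 and 53 CPM at 0 h, in KO1. KO2 libraries had 841 to 1500 CPM (median 1240) at 24 h, against 19.2 to 30.7 CPM (median 26.3) at 0 h, and KI libraries 6070 to 8420 CPM (median 6980) at 24 h, against 66.7 to 97.7 CPM (median 83.8) at 0 h. All 24 h units were above all resting ones. Ciita, the master activator of class II genes, had 5.4, 6.74 and 5.56 CPM at 24 h, against 0.579, 0.899 and 0.687 CPM at 0 h, in KO1, and changed by 2.998, 3.76 and 3.59 (edgeR, largest adjusted p 0.0023). The invariant chain gene Cd74 changed by 2.98, 3.94 and 4.73, and H2-Oa, which tunes peptide exchange, by 4.66, 5.09 and 4.64. The protease gene Ctss was not called in KO1, at 0.51 ± 0.42, and was lower in KO2 and KI, at -0.29 ± 0.12 and -0.52 ± 0.097.

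Among co-stimulatory and checkpoint ligands 11 of 18 were higher and 2 lower, and 11 and 3 with library totals alone. Cd274, which codes for the T cell inhibitor PD-L1, had 5470, 7850 and 6300 CPM at 24 h, against 27.2, 19 and 94.5 CPM at 0 h, in KO1. KO2 libraries had 1850 to 4710 CPM (median 2970) at 24 h, against 24.4 to 38.7 CPM (median 27) at 0 h, and KI libraries had 3760 to 7000 CPM (median 5030) at 24 h, against 7.93 to 10.5 CPM (median 8.48) at 0 h. Its change was 7.12, 6.78 and 9.204, that of Cd40 was 6.33, 5.95 and 7.61 and that of the co-stimulator Cd86 was 4.62, 4.84 and 6.54, and in KO1 without S35 Cd274 was at 8.173 and Cd86 at 5.383. Cd200r1 and Vsir, both of which restrain myeloid or T cells, were the lower members, at -1.55, -1.97 and -2.25 and -0.93, -1.504 and -2.005.

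Cytokine transcripts were still far above rest at 24 h: 17 of 22 inflammatory cytokines were higher in every cohort and none lower, and 12 were higher with library totals alone. Medians were 2.83, 3.75 and 3.86. Over all genes, 28.7% were higher and 25.9% lower at 24 h than at 6 h in KO1, 31% and 28% in KO2 and 33.6% and 31.8% in KI, and this comparison uses the same 24 h units as that with rest, so both are given side by side without a count across them. One KI library at 6 h has a conflicting description and was kept by its title.

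Il12b, a subunit of interleukin-12 that directs T cells to make IFN-gamma, rose to a high level at 6 h and was lower again at 24 h. In KO1 the 3 cultures had 1.09, 2.87 and 2.44 CPM at 0 h, 11800, 38000 and 6740 CPM at 6 h and 262, 50.5 and 54.9 CPM at 24 h. In KO2 the levels were 0 to 0.67 CPM (median 0.164) at 0 h, 1320 to 2920 CPM (median 1740) at 6 h and 2.83 to 4.79 CPM (median 3.71) at 24 h. In KI they were 0.266 to 5.16 CPM (median 2.16) at 0 h, 18500 to 23200 CPM (median 19600) at 6 h and 207 to 286 CPM (median 221) at 24 h. The 24 h groups lay between the other times, at log2 fold changes of 5.83, 4.001 and 6.65 over rest and -7.27, -8.99 and -6.42 over 6 h, and the KO1 change over rest was 4.304 without S33 and 6.493 without S34.

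Il6, Tnf and Il10 all fell after 6 h and differed in how far above rest they stayed at 24 h. Il6 changed by 7.03, 7.69 and 10.53 over rest and -4.99, -5.16 and -2.32 over 6 h. Tnf changed by 5.098, 4.49 and 5.03 and -3.04, -3.32 and -3.52. Il10, the anti-inflammatory cytokine, was highest at 6 h. In KO1 the cultures had 0.515, 0.675 and 0.839 CPM at 0 h, 12.8, 4.69 and 17.6 CPM at 6 h and 1.46, 0.947 and 5.24 CPM at 24 h. KO2 libraries had 0.197 to 1.29 CPM (median 0.869) at 0 h, 21.8 to 32.9 CPM (median 26.4) at 6 h and 0.504 to 3 CPM (median 1.24) at 24 h, and KI libraries had 0 to 0.656 CPM (median 0.349) at 0 h, 5.13 to 8.31 CPM (median 6.23) at 6 h and 1.13 to 3.29 CPM (median 1.69) at 24 h. At 24 h the groups overlap with rest in KO2 and not in KO1 or KI. Its change over rest was 2.42 ± 0.38 in KI, where it passed the test, 1.93 ± 0.84 in KO1 (edgeR, adjusted p 0.0732) and 0.44 ± 0.34 in KO2 (adjusted p 0.265). The KO1 value depended on the fit: it passed with a replicate block (1.665, adjusted p 0.00633), with only the 2 groups compared (adjusted p 0.0281), with only the 3 control groups (0.0333), with no filter (1.77e-06) and with single libraries (0.00524), and was 1.003 without S35 (0.525). Il1a and the receptor antagonist Il1rn changed by 8.08, 9.85 and 12.87 and 5.76, 7.47 and 8.92 over rest. Osm was of mixed direction, at 1.01, -0.63 and 2.73, and its KO1 call was lost whichever culture was left out (adjusted p 0.228, 0.0961 and 0.0651 without S33, S34 and S35).

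Of 20 chemokines 15 were higher in every cohort and 4 were lower, against 14 and 4 with library totals alone. Cxcl10 had 9260, 8240 and 6660 CPM at 24 h, against 3.8, 4.5 and 21.7 CPM at 0 h, in KO1, with -0.24, -0.14 and 0.15 on the log2 scale over 6 h, none of which passed the test. Cxcl9, by contrast, changed by -1.43, -3.04 and -3.300 over 6 h. Ccl5 changed over rest by 6.26, 12.16 and 10.73 (edgeR, largest adjusted p 0.00102), with 9.6 in KO1 without S35. The 4 lower chemokines were Cxcl14, Ccl6, Pf4 and Ccl9, at -3.66, -4.16 and -4.63, -3.202, -3.26 and -4.83, -2.83, -1.67 and -1.51 and -0.92, -2.77 and -3.37. The KO1 call of Ccl9 was lost without S33 (adjusted p 0.355) or S34 (0.135).

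Receptors for chemoattractants split, with 6 of 20 higher, 5 lower and 1 mixed, and 6 higher and 9 lower with library totals alone. Fpr1, a receptor for formylated bacterial peptides, had 461, 496 and 985 CPM at 24 h, against 2.19, 0.225 and 3.2 CPM at 0 h, in KO1. It was one of the genes above its 6 h level, by 2.600, 3.56 and 4.41, and changed by 8.46, 10.45 and 8.91 over rest. Fpr2 and the lymph node homing receptor Ccr7 changed by 7.598, 10.49 and 8.65 and 7.498, 4.75 and 7.52. Cxcr4 and S1pr1, which hold or release cells from marrow and lymph, and the decoy-like C5a receptor C5ar2 were lower, at -4.596, -5.52 and -3.32, -3.38, -2.81 and -4.46 and -2.86, -2.95 and -3.63.

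Feedback regulators were mostly higher at 24 h than at rest: 23 of 33 were higher in every cohort and 1 lower, and 15 and 3 with library totals alone. Besides Socs1, Socs3 and Cish of the same family changed by 9.12, 8.800 and 7.33 and 3.44, 5.501 and 5.66, and Usp18, which blocks the type I interferon receptor, by 3.94, 5.63 and 5.49. Zfp36l2 of a family that destabilises messenger RNA was the lower one, at -2.22, -1.79 and -2.11.

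**Figure D3:**
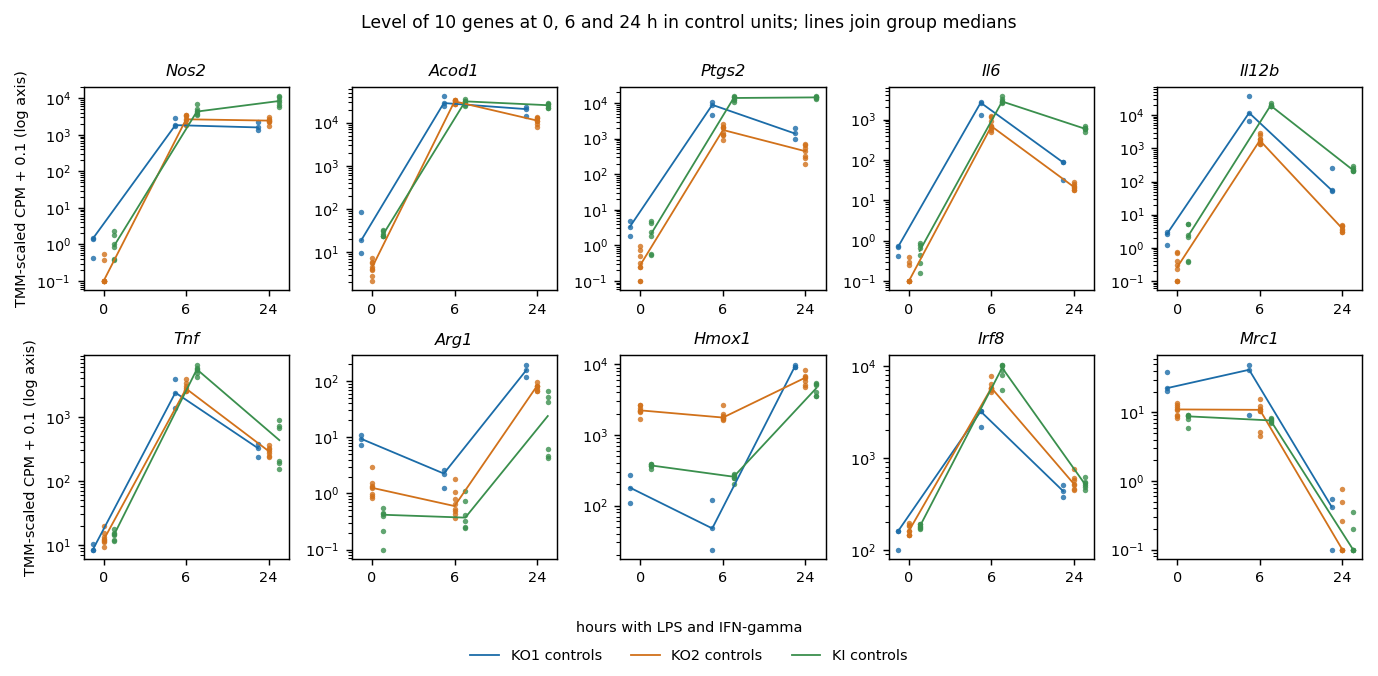
TMM-scaled CPM plus 0.1 (log axis) of 10 genes at 0, 6 and 24 h in control units of the 3 cohorts; points are units and lines join group medians. Nos2 and Acod1 stay far above rest, with Acod1 in KO2 at a median of 11200 CPM at 24 h after 31200 CPM at 6 h and Nos2 in KI at 8480 CPM after 4340 CPM, Il6, Il12b, Tnf and Irf8 fall from their 6 h level but stay above rest, Arg1 and Hmox1 are highest at 24 h, and Mrc1 falls below rest after 6 h; Hmox1 was chosen after its values were seen.

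Of 22 Toll-like receptor genes 8 were higher, 3 lower and 2 mixed, the lower ones at about their share of all genes (13.4%), and 2 higher and 8 lower with library totals alone, while without culture S33 the lower count was 1. Cd14, the LPS co-receptor, changed by 2.79, 2.18 and 3.102 and the adaptor Myd88 by 2.205, 1.79 and 1.103, whereas Tlr4 itself was of mixed direction, at -1.04, 0.64 and -1.35, with its KO1 call lost without S33 (adjusted p 0.147) or S35 (0.482). Tlr8 and Tlr13 were lower, at -1.62, -0.696 and -2.87 and -1.16, -0.86 and -1.26, the KO1 call of Tlr13 being lost without S33 (adjusted p 0.0829). Of 30 inflammasome and death genes 20 were higher and 1 lower, 13 and 4 with library totals alone. Fas, the death receptor, changed by 4.79, 4.13 and 4.29 and Mefv, the pyrin sensor, by 3.52, 3.98 and 3.96. Pycard, the adaptor ASC that joins sensors to caspase-1, was the lower one, at -0.96, -0.399 and -1.52, with the KO1 call lost without S33 (adjusted p 0.0746) or S34 (0.064).

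Genes around nitric oxide were split. Of 14 nitric oxide and arginine genes 5 were higher and 3 lower, and 5 and 6 with library totals alone. Slc7a2, an arginine importer, had 586, 581 and 494 CPM at 24 h, against 11.9, 9.95 and 15.2 CPM at 0 h, in KO1, and changed by 5.49, 8.11 and 8.48. Ass1, which rebuilds arginine from citrulline, changed by 4.41, 5.06 and 5.78. Ddah2, Qdpr and the spermine synthase Sms were lower, at -3.41, -2.35 and -2.55, -1.37, -1.29 and -1.38 and -1.23, -0.95 and -1.16. In KO1 Ddah2 was at -5.757 without S33 and -2.485 without S34, and the call of Sms was lost without S33 (adjusted p 0.0592).

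Arg1 (chr10:24915221-24927484, minus strand), an arginase that competes with Nos2 for arginine and is a textbook marker of alternative activation, was higher at 24 h too. In KO1 it had 9.27, 7.25 and 10.8 CPM at 0 h, 2.16, 1.13 and 2.48 CPM at 6 h and 197, 119 and 157 CPM at 24 h. In KO2 it had 0.72 to 2.91 CPM (median 1.16) at 0 h, 0.263 to 1.73 CPM (median 0.496) at 6 h and 65.5 to 95.3 CPM (median 82.2) at 24 h. In KI it had 0 to 0.443 CPM (median 0.318) at 0 h, 0.14 to 1.01 CPM (median 0.271) at 6 h and 4.09 to 67.4 CPM (median 23.8) at 24 h, with 4.09 to 6 CPM in 24 h libraries 1, 3 and 5 and 41.6 to 67.4 CPM in libraries 2, 4 and 6. The change over rest was 4.11 ± 0.32 in KO1, 5.94 ± 0.18 in KO2 and 6.75 ± 0.64 in KI (edgeR, largest adjusted p 1.13e-08), and over 6 h it was 6.35, 6.79 and 6.29. At 6 h its median was below that at rest in all 3 cohorts, but the ranges at these times overlapped in KO2 and KI. Levels there were low, and no test of 6 h against rest is given here.

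The Arg1 change in KI was 7.66 without 24 h libraries 1, 3 and 5 and 4.18 without 2, 4 and 6, and passed the test both ways. Of 180 named genes the KI change moved by over 1.5 times without either set in 17. Among them were Tnf, at 3.69 without 1, 3 and 5 and 5.73 without 2, 4 and 6, Ptgs1, at -9.998 and -7.499, Myc, at -7.921 and -4.905, Mrc1, at -6.11 and -7.32, Pparg, at -6.647 and -7.867, Tmem176b, at -8.15 and -6.62, S1pr1, at -3.755 and -5.382, and Pf4, at -2.24 and -1.09. Ccr7, Cish, Itgb5, Osm, Pycard, Cd300lb, Il10 and Abca1 moved as far without one of the sets, and the calls of Abca1 and Mvk were lost without 1, 3 and 5 (adjusted p 0.9 and 0.0526) and that of Pfkm without 2, 4 and 6 (0.332). Without libraries 1, 3 and 5 the test called 6805 genes in KI and the shared state held 3242 genes, and without 2, 4 and 6 it called 6663 and 3291, against 7337 and 3377 with all.

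Glycolysis rose nearly as a whole: 20 of 22 genes were higher in all cohorts, 18 with library totals alone, with medians of 2.67, 2.06 and 3.62. Pfkfb3, whose product feeds the main control point of the pathway, had 336, 537 and 537 CPM at 24 h, against 18.9, 14 and 32.8 CPM at 0 h, in KO1. KO2 libraries had 200 to 388 CPM (median 295) at 24 h, against 3.34 to 12.5 CPM (median 8.68) at 0 h. The log2 fold change was 4.43, 5.16 and 5.69 (edgeR, largest adjusted p 2.46e-07). Hk3, a hexokinase, changed by 4.21, 4.15 and 5.21, the lactate exporter Slc16a3 by 4.0004, 3.58 and 5.74 and the sugar carrier Slc2a6 by 4.13, 3.83 and 3.67. Pfkfb4 was the lower member, at -0.81, -1.53 and -1.51, with its KO1 call lost without S35 (adjusted p 0.0571). Pfkm was called in KI alone, at -0.83, -0.25 and -0.61, and was called in KO1 too with a replicate block (adjusted p 0.0282), fewer groups (0.0243 and 0.0266), no filter (0.049) or single libraries (0.00351).

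The TCA cycle list was split between 7 higher and 5 lower of 22, with 1 higher and 11 lower by library totals alone, and 2 and 3 lower without cultures S33 and S34. Isocitrate dehydrogenases led the lower members. Idh1 had 28.8, 23.9 and 24.1 CPM at 24 h, against 131, 190 and 91.9 CPM at 0 h, in KO1. It had 7.67 to 12.7 CPM (median 11.5) at 24 h, against 385 to 454 CPM (median 423) at 0 h, in KI, so that no 24 h unit reached a resting one, and it changed by -2.43, -3.51 and -5.26. Idh2 changed by -2.88, -2.36 and -2.88 and Idh3a by -1.14, -0.64 and -0.76, and fumarase Fh1 by -0.55, -0.52 and -1.12, with KO1 calls lost without S33 for Idh3a (adjusted p 0.0515) and without S33 or S34 for Fh1 (0.17 each). Pcx, pyruvate carboxylase, which refills the cycle, was higher, at 1.91, 1.63 and 2.700, as were Mdh2 and Sdhd, at 1.14, 0.62 and 0.87 and 1.56, 0.82 and 1.36, the KO1 call of Pcx being lost without S35 (adjusted p 0.0895).

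Nuclear genes of the respiratory chain were higher in 19 of 42 and lower in none relative to the bulk, with medians of 0.635, 0.344 and 0.592. That direction turned with library totals alone, to 2 higher and 8 lower, and the count was 12 without culture S35. Cycs, cytochrome c, changed by 2.101, 1.997 and 2.11 and Cox5a by 1.95, 1.38 and 0.99. Of 11 mitochondrially encoded genes none was higher and 1 lower in all cohorts, 4 lower with library totals alone. Taken by cohort, 1 was lower in KO1, 8 in KO2 and 10 in KI, against 20.6%, 29.7% and 29.9% of all genes tested. None was higher in any cohort, and medians were -0.117, -0.495 and -1.6. mt-Nd1 was at -0.24 ± 0.596 in KO1 (edgeR, adjusted p 0.766), -0.38 ± 0.17 in KO2 and -2.59 ± 0.16 in KI. Its KO2 call was lost with libraries summed in threes (edgeR, adjusted p 0.0701) and with only the 2 groups compared (0.0629). It was also lost with only the 3 control groups (0.0556) and with a replicate block (0.0775). The phagocyte NADPH oxidase, which makes superoxide, had 4 of 6 genes higher, led by Cybb and Rac2 at 2.52, 3.63 and 1.78 and 3.61, 2.95 and 1.83, and 3 with library totals alone.

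Enzymes of tryptophan, NAD and nucleosides were higher in 8 of 12 and lower in none, 8 and 1 with library totals alone. Ido1 and Kynu, which degrade tryptophan, changed by 7.401, 7.65 and 8.801 and 4.9995, 5.72 and 4.79. Ido1 had 3 counts in each of the resting KO1 and KO2 groups, giving ratios of 202 with a counting interval of 68.5 to 983 and of 269 with one of 91.8 to 1310. Cmpk2, a mitochondrial nucleotide kinase, changed by 4.73, 7.14 and 5.79.

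The lipid mediator genes exchanged one cyclooxygenase for the other. Ptgs1, the constitutive cyclooxygenase, had 0.787, 0.592 and 0 CPM at 24 h, against 25.3, 40 and 11.1 CPM at 0 h, in KO1. KO2 libraries had 0 to 0.336 CPM (median 0.112) at 24 h, against 20.2 to 34.2 CPM (median 26.6) at 0 h, and KI libraries had 0 to 0.658 CPM (median 0.0628) at 24 h, against 61.2 to 75.6 CPM (median 69) at 0 h. Its change was -5.79 ± 0.73 in KO1, -7.32 ± 0.33 in KO2 and -8.11 ± 0.298 in KI (edgeR, largest adjusted p 3.46e-06), and -6.448 in KO1 without S33, opposite to that of Ptgs2. Of 13 genes of the list 6 were higher and 4 lower, and 4 and 6 with library totals alone. Ptges, the inducible prostaglandin E synthase, changed by 6.51, 5.61 and 6.04 and the phospholipase Pla2g4a by 4.35, 4.93 and 5.04. Hpgds, Tbxas1 and Alox5ap, which serve prostaglandin D, thromboxane and leukotrienes, were lower, at -1.26, -1.76 and -1.895, -1.11, -1.297 and -1.93 and -1.03, -1.198 and -1.91, with the KO1 call of Tbxas1 lost without S33 (adjusted p 0.0618) or S34 (0.0757).

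Of 23 cholesterol genes 2 were higher and 3 lower in every cohort, at or below the shares of all genes. With library totals alone these counts were 0 and 18. Without cultures S33 and S34 they were 0 and 1 higher and 1 and 1 lower. Taken by cohort, 3 genes were lower in KO1, 16 in KO2 and 14 in KI, and 4, 3 and 2 were higher. Over all genes tested 20.6%, 29.7% and 29.9% were lower. Medians of the list were -0.438, -1.02 and -0.464. Cyp51, Dhcr7 and Mvk, enzymes of cholesterol synthesis, were lower, at -1.22, -1.68 and -1.33, -1.03, -2.08 and -1.96 and -0.86, -1.09 and -0.81. KO1 calls were lost without S33 or S34 for Dhcr7 (adjusted p 0.0548 and 0.122) and without S33, S34 or S35 for Mvk (0.0962, 0.0556 and 0.0916). Of 14 genes of LXR targets and efflux 4 were higher and 2 lower, near the shares of all genes (18.4% and 13.4%), 3 and 9 with library totals alone and 4 lower with a replicate block. Ch25h, which makes 25-hydroxycholesterol, changed by 5.38, 5.802 and 3.31 over rest and -4.400, -4.53 and -5.27 over 6 h. Apoe was lower in KO2 and KI, at -2.01 ± 0.13 and -2.12 ± 0.197, and not called in KO1, at -0.74 ± 0.48 (edgeR, adjusted p 0.222).

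Iron and secreted defence genes rose in part. Of 20 iron and metal genes 9 were higher and 2 lower, 8 and 4 with library totals alone. Lcn2, which captures bacterial siderophores, changed by 3.57, 10.33 and 7.74 and Slc11a1, which pumps metals out of the phagosome, by 2.999, 1.49 and 2.81. Steap3 and Slc39a8 were lower, at -4.27, -4.300 and -4.33 and -2.37, -2.68 and -3.94, and the exporter Slc40a1 was at -0.01 ± 0.41, not called, in KO1 and at -3.79 ± 0.23 and -2.24 ± 0.12 in KO2 and KI. Of 19 acute phase genes 11 were higher, 2 lower and 2 mixed, 10 and 4 with library totals alone.

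Saa3, a serum amyloid A protein, had 4080, 7710 and 8330 CPM at 24 h, against 16.4, 2.3 and 86.9 CPM at 0 h, in KO1. KO2 libraries had 18500 to 30000 CPM (median 25800) at 24 h, against 0.223 to 1.77 CPM (median 1.2) at 0 h, and KI libraries 8110 to 14200 CPM (median 10700) at 24 h, against 1.84 to 4.36 CPM (median 2.56) at 0 h. It was the largest change in KO2 among the named genes of this list, at 7.58 ± 1.32 in KO1, 14.43 ± 0.24 in KO2 and 11.84 ± 0.34 in KI (edgeR, largest adjusted p 0.000134), and 6.911 in KO1 without S34 and 9.305 without S35. Slpi, a protease inhibitor, changed by 4.798, 6.04 and 9.004 over rest and 3.42, 3.82 and 7.22 over 6 h. Spp1, osteopontin, was lower, at -5.597, -5.93 and -3.39, with 111, 58 and 63.4 CPM at 24 h, against 3500, 6660 and 1070 CPM at 0 h, in KO1, and at -4.712 in KO1 without S34. Complement genes had 4 of 11 higher and 2 lower, 4 and 3 with library totals alone: C3 changed by 3.996, 7.45 and 7.13. Cfb had no count in the resting KO2 libraries and was there at least 8.282 higher on the log2 scale.

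First among the shared lower genes by smallest change over the cohorts, at a mean log2 CPM of at least 3, was a receptor. Genes below that level were not ranked. Cx3cr1 (chr9:119901616-120069879, minus strand), the receptor for fractalkine and a marker of resident macrophages and monocytes, had 1.91, 1.77 and 1.6 CPM at 24 h, against 64, 254 and 61.2 CPM at 0 h, in KO1. KO2 libraries had 0.6 to 1.61 CPM (median 1.01) at 24 h, against 39.7 to 82.8 CPM (median 74.7) at 0 h. KI libraries had 1.13 to 2.09 CPM (median 1.74) at 24 h, against 447 to 585 CPM (median 555) at 0 h. S34 was the highest resting culture of KO1, and all 24 h units lay between 0.6 and 2.09 CPM. The log2 fold change was -6.16 ± 0.54 in KO1, -6.05 ± 0.27 in KO2 and -8.35 ± 0.17 in KI (edgeR, largest adjusted p 4.24e-08), and that over 6 h was -0.48, -1.17 and -1.24, with no call in KO1. Without S34 the KO1 change over rest was -5.145.

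Fcrls, an Fc receptor-like gene known as a microglial marker, had 4.05, 2.37 and 1.71 CPM at 24 h, against 143, 286 and 71.5 CPM at 0 h, in KO1. KO2 libraries had 0 to 1.67 CPM (median 0.588) at 24 h, against 36.5 to 48.7 CPM (median 43.1) at 0 h. Its change was alike in the 3 cohorts, at -5.94 ± 0.55 in KO1, -6.11 ± 0.26 in KO2 and -6.23 ± 0.202 in KI (edgeR, largest adjusted p 7.29e-08), and most of it came after 6 h, at -5.05, -4.75 and -5.15 over 6 h. S100a4, a calcium-binding protein of motile cells, had 5.4, 1.42 and 1.39 CPM at 24 h, against 111, 148 and 35.3 CPM at 0 h, in KO1, and 3 to 5.73 CPM (median 4.25) at 24 h, against 255 to 285 CPM (median 273) at 0 h, in KI. It too changed mostly after 6 h, at -5.16, -5.71 and -5.93 over rest and -4.07, -4.99 and -5.65 over 6 h. In KO1 Fcrls was at -5.219 without S34, and S100a4 at -4.438 without S34 and -6.02 without S33.

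Further genes among the 15 lowest were Gpr183, a receptor for oxysterols, Rgs2, which shortens G protein signals, Olfml3, a secreted matrix protein, Cd28, known as a T cell co-stimulator, Cd300lb of the lipid-binding CD300 family, Sesn1, a stress protein that restrains mTORC1, Syngr1, Crip1, Tmem37, Tmem176b and F630028O10Rik. Gpr183 had 0.45, 1.3 and 0.749 CPM at 24 h, against 30.8, 30.2 and 15.2 CPM at 0 h, in KO1, and changed by -4.92, -5.92 and -7.21. Rgs2 had 3.04, 2.6 and 6.95 CPM at 24 h, against 130, 89.9 and 126 CPM at 0 h, in KO1, and changed by -4.77, -5.19 and -5.87. Olfml3 changed by -5.12, -5.58 and -8.42, with KI beyond the others, and so did Sesn1, at -4.16, -4.34 and -7.17. Cd28 changed by -4.58, -5.69 and -4.74, Tmem176b by -4.85, -4.43 and -7.09, Syngr1 by -4.600, -4.996 and -4.21 and Crip1 by -4.37, -4.67 and -4.097.

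Genes for the uptake of dying cells were mostly lower. Of 14 efferocytosis genes 11 were lower in all cohorts, against 13.4% of all genes tested in all 3, and 1 was higher, with medians of -1.8, -1.6 and -2.31. With library totals alone 12 were lower and none higher, and without culture S34 8 were lower. Gas6, which bridges phosphatidylserine to its receptors, changed by -3.23, -4.68 and -5.599, Itgb5, an integrin chain that binds the bridge Mfge8, by -3.62, -3.29 and -4.58, and Cd300a by -2.51, -3.41 and -2.91. Mertk, the receptor for Gas6, was the exception, at 1.300, 1.42 and 2.11, and was not among the higher genes with library totals alone. Abca1 was lower in KO1 and KI and not called in KO2, at -1.36, 0.01 and -0.51.

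Scavenger and lectin receptors were split, with 7 of 24 higher, 6 lower and 1 mixed, and 6 and 10 with library totals alone. Mrc1, the mannose receptor of alternatively activated cells, had 0.45, 0 and 0.321 CPM at 24 h, against 39.1, 22.3 and 20.1 CPM at 0 h, in KO1. It had 0 to 0.672 CPM (median 0) at 24 h, against 8.05 to 13.4 CPM (median 10.9) at 0 h, in KO2. In KI it had 0 to 0.251 CPM (median 0) at 24 h, against 5.75 to 9.11 CPM (median 8.62) at 0 h, with 3 counts over the 6 libraries at 24 h, a ratio of 0.00771 with a counting interval of 0.00159 to 0.0227. At 6 h it was near its resting level, and the change over 6 h was -6.93, -5.49 and -6.58. Trem2, a lipid-sensing receptor, had 54.1, 58.2 and 50.9 CPM at 24 h, against 835, 835 and 502 CPM at 0 h, in KO1, and changed by -3.73, -3.95 and -5.47. Marco, a scavenger receptor for bacteria, Clec4e and Clec4n were higher, at 6.13, 9.82 and 7.58, 5.98, 5.22 and 6.102 and 5.45, 3.18 and 5.63.

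Fc gamma receptors and lineage factors moved in part. Of 6 Fc gamma receptor genes 4 were higher and 1 lower, 3 and 1 with library totals alone: Fcgr4 changed by 4.51, 6.54 and 5.22, while Fcgrt, the recycling receptor, changed by -2.94, -3.35 and -4.405. Of 29 lineage and M-CSF signalling genes 6 were higher, 8 lower and 1 mixed, near the shares of all genes for the higher ones, and 2 and 11 with library totals alone. Pparg, a nuclear receptor of lipid-handling macrophages, had 0.337, 0.237 and 0.962 CPM at 24 h, against 18.2, 13.3 and 14.8 CPM at 0 h, in KO1, and changed by -4.86, -5.404 and -7.24, with -5.716 in KO1 without S35. Irf8 was higher, at 1.63, 1.74 and 1.54 over rest and -2.72, -3.43 and -4.08 over 6 h. Csf1r, the M-CSF receptor, was lower in KI, at -1.63 ± 0.102, and not called in KO1 and KO2, at -0.39 ± 0.29 and -0.34 ± 0.195. Lyz2, the gene whose promoter LysM-Cre uses, was at -0.999 ± 0.41 in KO1 (edgeR, adjusted p 0.0572), -0.98 ± 0.12 in KO2 and -2.07 ± 0.098 in KI, and in KO1 it passed the test with DESeq2 (-1.011, adjusted p 0.00613), a replicate block (-0.9783, 0.0387) and single libraries (-1.05, 2.32e-05).

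Lysosome and autophagy genes had no common direction. Of 34 lysosome genes 6 were higher, 7 lower and 2 mixed, and 3 and 19 with library totals alone. Ctsc and Ctsh, cathepsins, changed by 4.700, 5.87 and 4.78 and 3.31, 2.57 and 2.72, and the proton pump subunit Atp6v0d2 and the hexosaminidase gene Hexa by -3.84, -5.09 and -1.905 and -1.77, -2.74 and -2.96. Of 38 autophagy genes 5 were higher, 3 lower and 2 mixed, below the shares of all genes, and 2 and 17 with library totals alone. Tax1bp1, a cargo receptor, led the higher ones, at 1.75, 1.295 and 2.36, and Ulk2 the lower ones, at -1.28, -0.62 and -1.44.

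Becn1, the gene altered in the mutants of this series, had 31.8, 34 and 32 CPM at 24 h, against 29.9, 36.9 and 29.1 CPM at 0 h, in KO1 controls. KO2 libraries had 18.2 to 24.8 CPM (median 22) at 24 h, against 28.3 to 36.8 CPM (median 34.1) at 0 h, and KI libraries 31 to 39.7 CPM (median 34.8) at 24 h, against 27.3 to 36 CPM (median 29.6) at 0 h. It was not called in KO1, at 0.03 ± 0.19 (edgeR, adjusted p 0.928), was lower in KO2, at -0.63 ± 0.13 (adjusted p 4.56e-05), and higher in KI, at 0.22 ± 0.09 (adjusted p 0.0258). The KI call was lost without libraries 1, 3 and 5 (adjusted p 0.0601) or 2, 4 and 6 (0.0817), and under 7 further settings: DESeq2 (0.1244, adjusted p 0.207), its size factors in edgeR (0.127, 0.212), libraries in pairs (0.1338, 0.225), no filter (0.1457, 0.458), only the 2 groups compared (0.1646, 0.119), only the 3 control groups (0.1476, 0.174) and a replicate block (0.1483, 0.205). With library totals alone its values were -1.008 in KO1 and -0.657 in KI. Chaperones of the endoplasmic reticulum had 8 of 24 genes higher, none lower and 1 mixed, 1 and 1 with library totals alone, and 3 and 5 higher without cultures S33 and S34. P4hb, a disulfide isomerase, changed by 1.94, 1.73 and 2.45 and Calr by 1.003, 2.001 and 1.28, the KO1 call of Calr being lost without S33 (adjusted p 0.225) or S34 (0.0995).

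Mitosis genes were low at 24 h. Of 16 mitosis genes 12 were lower in all cohorts and none higher, 14 with library totals alone and 6 when only control groups entered the fits or a replicate block was used, with medians of -2.29, -1.41 and -1.61. Mki67, a marker of cycling cells, had 1.01, 0.828 and 0.535 CPM at 24 h, against 11.8, 11.9 and 3.74 CPM at 0 h, in KO1. KO2 libraries had 0.2 to 2.04 CPM (median 0.998) at 24 h, against 0.985 to 4.72 CPM (median 2.94) at 0 h, whose groups overlap, and KI libraries had 0.529 to 1.74 CPM (median 1.11) at 24 h, against 3.22 to 5.25 CPM (median 3.81) at 0 h, whose groups do not. It changed by -3.52 ± 0.61 in KO1, -1.55 ± 0.296 in KO2 and -1.75 ± 0.24 in KI (edgeR, largest adjusted p 0.000132). Rrm2, the ribonucleotide reductase subunit, and Mcm6 of the replicative helicase changed by -5.41, -3.14 and -2.78 and -2.92, -2.57 and -2.43, among 6 of 21 S phase genes lower and 1 higher, 15 and 1 with library totals alone. Medians of that list were -1.91 in KO1, -0.824 in KO2 and -0.218 in KI, where its mean log2 level per library overlapped, at 2.24 to 2.33 at 24 h against 2.27 to 2.39 at 0 h. Ccne1, cyclin E, was the higher one, at 3.14, 4.86 and 5.05.

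Myc had 0.225, 0 and 0.321 CPM at 24 h, against 11.5, 16.9 and 2.14 CPM at 0 h, in KO1, and changed by -5.69, -4.67 and -5.56 (in KO1 -4.593 without S34 and -6.813 without S35), with 3 counts in the KI libraries at 24 h, a ratio of 0.017 with a counting interval of 0.00349 to 0.0504. Of 18 cell cycle inhibitors and D cyclins 8 were higher, 2 lower and 1 mixed, and 4 and 7 with library totals alone, and the lower count was 1 with any 1 KO1 culture left out, with DESeq2 and with a replicate block. Cdkn1a, which codes for the inhibitor p21, had 2310, 2200 and 1820 CPM at 24 h, against 215, 119 and 225 CPM at 0 h, in KO1, and changed by 3.503, 3.41 and 4.77. Mxd1, a partner that opposes Myc, changed by 4.36, 4.22 and 4.902, and Ccnd2, cyclin D2, by 4.41, 5.08 and 6.602.

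**Figure D4:**
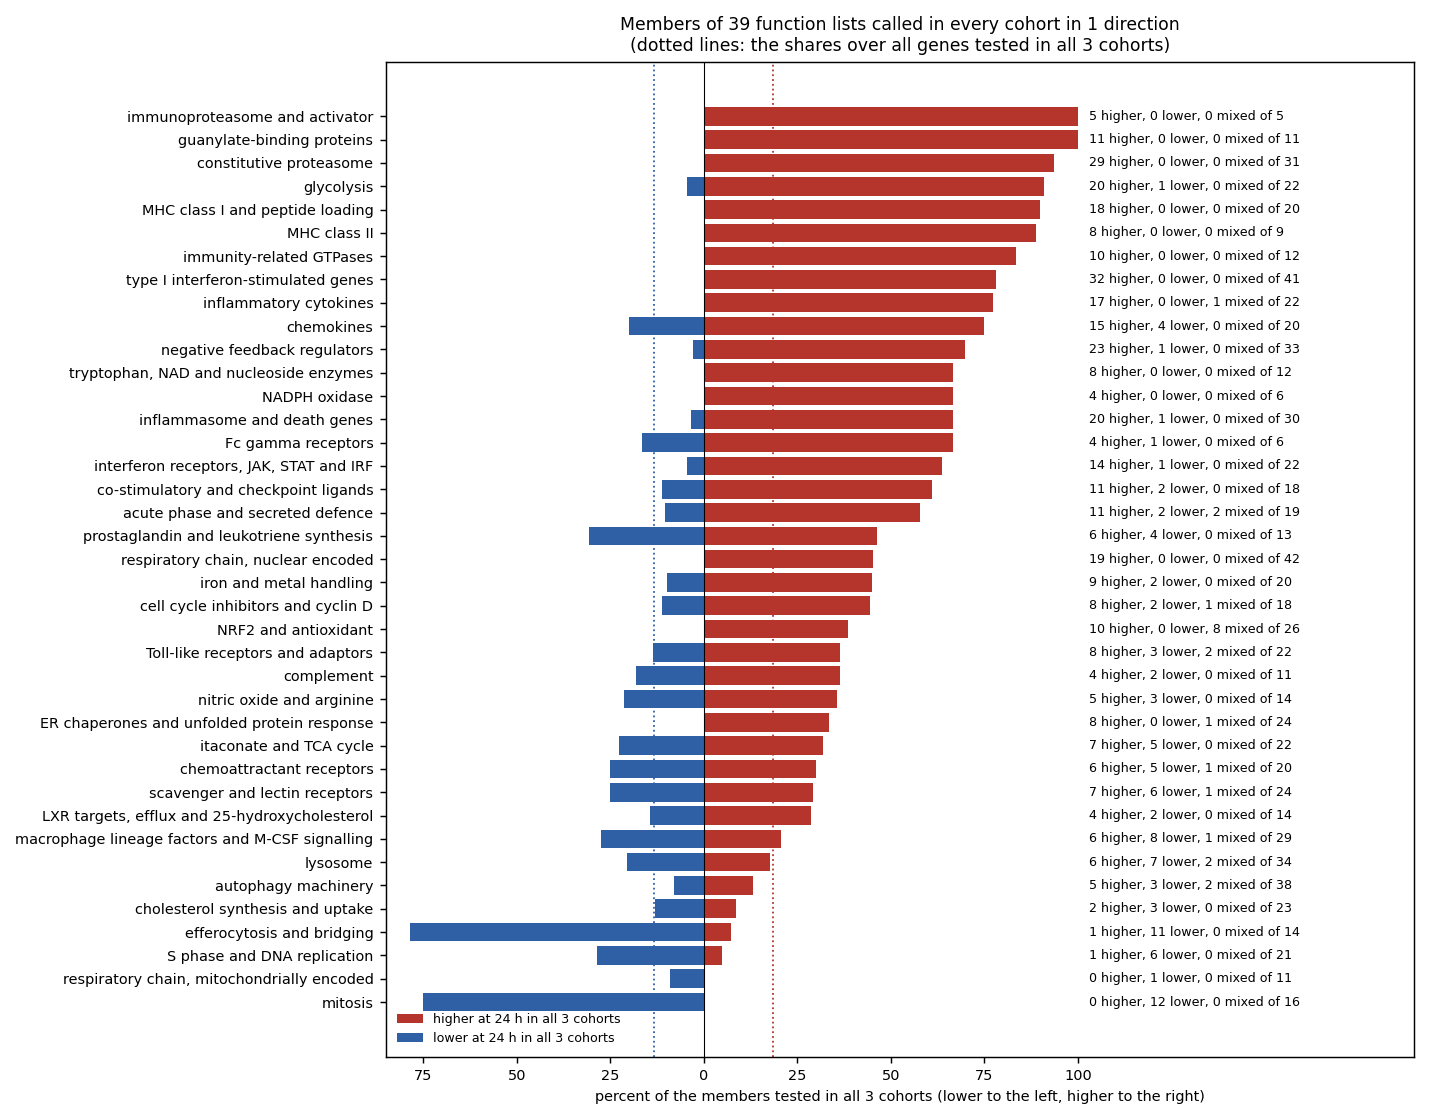
Share of the members of 39 function lists, in percent of those tested in all 3 cohorts, that were higher (red, right) or lower (blue, left) at 24 h in every cohort; dotted lines mark 18.4% and 13.4%, the shares over all genes. All 11 guanylate-binding proteins and all 5 immunoproteasome genes are higher, 11 of 14 efferocytosis and 12 of 16 mitosis genes are lower, and lysosome genes are lower in 7 of 34 and higher in 6, autophagy and cholesterol genes lie near or below the dotted lines; with library totals alone the red bars shorten and the blue ones lengthen for most lists, as the counts in the text give.

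The size of the change differed between cohorts in 4182 of 12314 genes (34%) of a joint fit of all 3 cohorts in edgeR. Cohorts differ in mice and library series, and KO1 differs from KO2 and KI in sex-linked RNA as well. The parts of these cannot be told apart. The NRF2 list, genes of the antioxidant response to electrophiles such as itaconate, had the most genes of mixed direction among the 39 lists: of 26 genes 10 were higher in all cohorts, none was lower and 8 were of mixed direction, against 0.999% mixed over all genes. Its medians were 2.33 in KO1, 0.0772 in KO2 and 1.24 in KI, and 8 were higher with library totals alone.

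Gclm, a subunit of the enzyme that limits glutathione synthesis, differed between cohorts mainly in its resting level, as far as separately scaled tables can be set side by side. KO1 cultures had 495, 507 and 269 CPM at 24 h, against 23, 31.4 and 9.92 CPM at 0 h. KO2 libraries had 521 to 1090 CPM (median 833) at 24 h, against 1010 to 1790 CPM (median 1390) at 0 h. KI libraries had 209 to 436 CPM (median 315) at 24 h, against 35.9 to 83.8 CPM (median 72.2) at 0 h. Resting KO2 libraries lay above all resting units of the other cohorts, and the change was 4.300 ± 0.47 in KO1, -0.804 ± 0.14 in KO2 and 2.26 ± 0.21 in KI (edgeR, largest adjusted p 8.92e-07). Gstm1, a glutathione transferase, had the same order, with 217, 193 and 158 CPM at 24 h, against 26.7, 55.7 and 18.6 CPM at 0 h, in KO1, and 47.3 to 71 CPM (median 57.6) at 24 h, against 184 to 298 CPM (median 229) at 0 h, in KO2, and its change was 2.48, -1.998 and 0.72. Srxn1, sulfiredoxin, changed by 1.698, -0.61 and 2.15. Sod2, Prdx5, Slc7a11 and Gsr were higher in every cohort, at 6.13, 5.81 and 6.06, 3.904, 4.17 and 5.45, 4.21, 3.75 and 5.66 and 3.79, 2.28 and 4.68.

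Genes with the smallest p of the cohort difference included cytokine and complement genes. C1qa, a chain of the complement starter C1q, had 406, 266 and 291 CPM at 24 h, against 275, 173 and 170 CPM at 0 h, in KO1, 214 to 342 CPM (median 239) at 24 h, against 257 to 432 CPM (median 290) at 0 h, in KO2, and 19.3 to 30.6 CPM (median 23.4) at 24 h, against 265 to 363 CPM (median 289) at 0 h, in KI. It was lower 24 h over 0 h mainly in KI, at 0.64, -0.33 and -3.63, with no call in KO1 (edgeR, adjusted p 0.179), and its partner C1qc changed by 2.61, 0.08 and -1.999. Inhba, a subunit of activin A, changed by 2.26, 3.75 and 9.63, Serpinb9, an inhibitor of granzyme B, by 4.16, 3.53 and 7.605 and Procr, the endothelial protein C receptor, by 9.304, 5.73 and 9.46. Atf4, a factor of the amino acid stress response, changed by 2.39, 0.604 and 3.17, Limd2 by 1.798, 1.22 and -1.99, the nucleotide receptor P2ry6 by 0.23, -0.54 and -2.83 and Fgd2, an activator of Cdc42, by -1.25, -0.86 and -3.83. In KO1 Inhba lost its call without S34 (adjusted p 0.0635) or S35 (0.131) and Fgd2 without S33 (0.0631).

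**Figure D5:**
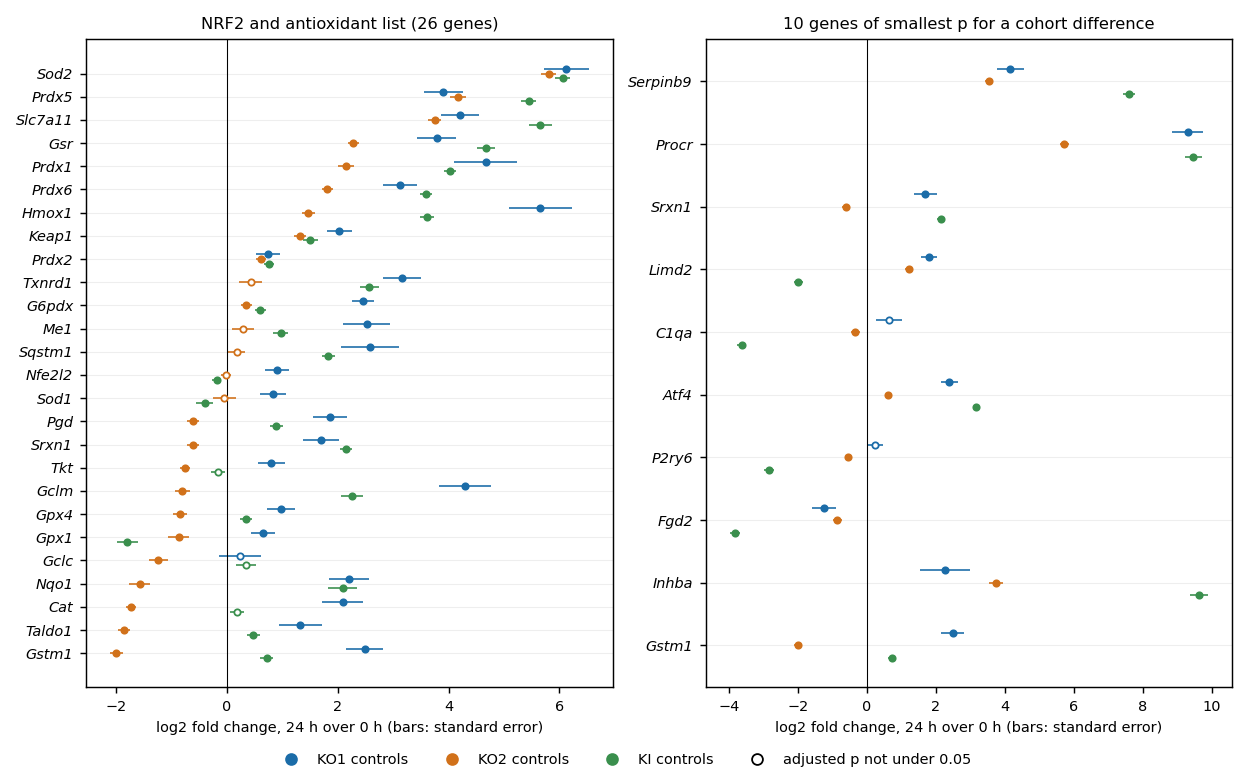
Log2 fold change of 24 h over 0 h (bars: standard error) in controls of KO1, KO2 and KI for the 26 genes of the NRF2 and antioxidant list and for the 10 genes of smallest p for a cohort difference; open points mark an adjusted p not under 0.05. In the left panel KO2 lies below the other cohorts for most genes and below 0 for Gclm, Gstm1 and Srxn1, while Sod2 is alike in all 3; in the right panel KI stands apart for Serpinb9, Inhba and C1qa.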

How the data were processed

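Raw counts per gene symbol (34573 symbols) and library were deposited as 1 table for each cohort; per the submitters' processing notes they came from TopHat and HTSeq on mm10, and versions are not given in the sources used here. Repeats of a KO1 culture were summed. In edgeR 4.0.16 (R 4.3.3), genes passing filterByExpr were scaled by TMM, and each cohort had 1 quasi-likelihood fit over its 6 groups, mutants included, with Benjamini-Hochberg adjustment across the whole table. Standard errors are the absolute log2 fold change divided by the root of F. The cohort difference came from a joint fit. No 2 libraries of a group differed by so little as to be copies (151 pairs, smallest chi-square per degree of freedom 3.65). Fits were tested on simulated data in which few genes changed. They called 27.1%, 88.4% and 85.6% of 2-fold changes in KO1, KO2 and KI, and 83.3%, 100% and 100% of 4-fold changes. Far more genes were called in the real data (41.9% in KO1), so these shares need not carry over to it. Recovery of 2-fold changes was lowest in KO1, so its fit, and with it the shared state, may miss changes of that size. Members and the 39 function and 11 marker lists were chosen with earlier results of these data known. Named genes are the 15 highest and 15 lowest of the shared state by smallest absolute change at a mean log2 CPM of at least 3, up to 4 shared members per list and direction and 2 without a common call, a fixed set of activation and macrophage genes, and the 10 smallest p for the cohort difference. Some genes that this rule names are not reported here. Positions are from GENCODE on GRCm38 and promoters from RefSeq. Alternatives were DESeq2 1.42.0 and its size factors, no filter, fewer groups, a replicate block, left-out cultures and libraries, single or summed libraries, and stricter thresholds. Library totals without TMM and leaving out either KI library set were added after seeing the data.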

Additional observations from a re-analysis of the deposited data

Results flagged for a closer look

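Among 208 groups of 4 to 10 libraries checked for 52 of the named genes, 13 held 1 library far from the others. Chance flags about 1 in 20 groups where values spread normally, which does not hold for genes with few counts. Most of the 13 lie at rest. Some rest on a few reads: the resting groups of Serpina3g in KO2, Gbp8 in KI, Clic5 in KO2 and Serpina3f in KI held 1, 5, 8 and 8 counts. At 0 h, Serpina3g had 0.143 CPM in KO2 library 5 and 0 in the others. Serpina3f had 0.688 CPM in KI library 4 against 0 to 0.23 CPM, and Gbp8 0.306 CPM in KI library 3 against 0 to 0.0844 CPM. KO2 library 8 was apart in Clic5, with 0.67 CPM against 0 to 0.197 CPM, in Arg1, with 2.91 against 0.72 to 1.45 CPM, and in Cd274, with 38.7 against 24.4 to 29.7 CPM. KO2 library 4 was apart in Tmem176b, with 38.7 CPM against 23.3 to 29.5 CPM, and in Limd2, with 50.9 against 29.4 to 38.7 CPM. Il10 had 0.197 CPM in KO2 library 9 against 0.787 to 1.29 CPM. F630028O10Rik had 31.9 CPM in KI library 3 against 41.7 to 47.1 CPM, and Mki67 had 5.25 CPM in KI library 2 against 3.22 to 3.96 CPM. Syngr1 was apart at both times in KO2, with 5.8 CPM in library 1 against 4.84 to 5.19 CPM at 24 h, and 196 CPM in library 7 against 153 to 169 CPM at 0 h.

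The 24 h change differed between cohorts in a joint edgeR test for the 10 genes chosen by that p. Unadjusted p-values were 3.41e-21 for Serpinb9, 1.13e-20 for Procr, 2.69e-20 for Srxn1, 3.49e-20 for Limd2, 7.72e-20 for C1qa, 4.51e-19 for Atf4, 1.58e-18 for P2ry6, 1.66e-18 for Fgd2, 3.96e-18 for Inhba and 4.68e-18 for Gstm1. Why the cohorts differ was not tested.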

How the results depend on the processing

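The count of the shared state stayed within 1.5 times of 3377 under 15 of 17 alternatives. It was 1854 with an absolute log2 fold change of at least 1 (2980 genes in KO2 and 3866 in KI), and 5296 with library totals alone (9792 in KO1), of which 2217 were in the same direction in the main shared state; the cause was not tested. Leaving out each KO1 culture gave 3884 to 4606 calls in KO1, 2666 to 3110 shared genes and 3504 to 4223 genes that differed between cohorts. Of the values of 180 named genes, 5457 kept direction and side of the threshold, 66 lost a call, 24 gained one and 23 changed direction. With library totals alone these were Becn1 at -1.008 in KO1 and -0.657 in KI, C1qa at -0.3774 and P2ry6 at -0.7936, Calr at -0.0335, Ctss at -0.5082 and Osm at -0.02307 in KO1, Abca1 at -0.4627 and C1qc at -0.3735 in KO2, and Gstm1 at -0.1634 and Mdh2 at -0.01294 in KI. Abca1 in KO2 was at -0.04147 with DESeq2, -0.04162 with its size factors in edgeR, -0.004776 with only the 2 groups and -0.002756 with the 3 control groups. In KO1 Becn1 was at -0.01815 with no filter, -0.02566 with single libraries and -0.02147 to 0.1128 without 1 culture (-0.003146 without S33). With a replicate block Slc40a1 was at 0.03826 and mt-Nd1 at 0.01745 in KO1, and without 1 culture they ran from -0.3343 to 0.408 and from -0.4432 to 0.2472. The causes were not tested. Same-numbered units' deviations correlated at -0.087 to 0.339 for KO1, where 2 of 3 pairs were over 0.1, -0.245 to 0.153 for KO2 and -0.128 to 0.0849 for KI, and best with their own number in 1 of 3, 1 of 7 and 0 of 6. The labels do not say what a number shares, and KO1 repeats its numbers at every time, so pairing is not settled there. A replicate block in a fit of controls gave 5815, 6001 and 6861 calls in KO1, KO2 and KI and 3283 shared genes, with 37 in place of 32 type I interferon-stimulated genes higher. Depth limits genes with a few counts at rest, whose folds have wide counting intervals, which cover counting error only.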
